A study of Homo sapiens with 44 samples.

Results

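CASP1, CASP4, GSDMD, CASP8, CASP10, RIPK1, MLKL, ZBP1 and XAF1 are 9 genes of inflammatory and programmed cell death. They were taken by symbol from a table of 40663 gene symbols and followed over every condition of a stromal cytokine response experiment. The cells were Ccd-18Co, a fibroblast line from human colon, and the 44 RNA-seq libraries fell into 11 groups of 4. One group was left unstimulated and each of the others received 1 cytokine: IFNα, IFNγ, TNF, IL-1β, OSM, TGF-β1, IL-6, IL-17A, IL-13 or IL-22. All groups, controls included, were starved without serum for 72 h before the 24 h of stimulation, at 10 ng/ml for each cytokine other than IL-1β (0.1 ng/ml in the sample labels; a figure legend of the study gives a lower dose, so the IL-1β dose is uncertain). The line is a single model, used up to passage 20, and nothing states that replicates came from separate cultures, so the p-values measure the spread between these libraries, which may be technical.

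These genes act in 3 linked routes to cell death. In pyroptosis, inflammasomes activate caspase-1, bacterial lipopolysaccharide in the cytosol activates caspase-4, and both cleave gasdermin D, whose fragment forms pores in the plasma membrane. In apoptosis started at death receptors, caspase-8 and its relative caspase-10 are activated on adaptor platforms, and caspase-8 also holds back necroptosis. In necroptosis, the kinase RIPK1 and the nucleic acid sensor ZBP1 act through RIPK3 on MLKL, the pseudokinase that permeabilizes the membrane, while XAF1 was named as a binding partner of the caspase inhibitor XIAP. Several of these genes are known interferon targets in other cells.

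In the GENCODE annotation (GRCh38), CASP1 (ENSG00000137752.25, chromosome 11, 105025397 to 105035250) and CASP4 (ENSG00000196954.14, chromosome 11, 104942866 to 104969366) lie near each other on the minus strand. CASP10 (ENSG00000003400.16, chromosome 2, 201182872 to 201229428) and CASP8 (ENSG00000064012.24, chromosome 2, 201233443 to 201361836) follow each other on the plus strand. The others are RIPK1 (ENSG00000137275.16, chromosome 6, 3063824 to 3115187, plus strand), MLKL (ENSG00000168404.13, chromosome 16, 74671855 to 74700960, minus strand), XAF1 (ENSG00000132530.17, chromosome 17, 6755447 to 6775647, plus strand) and ZBP1 (ENSG00000124256.15, chromosome 20, 57603846 to 57620576, minus strand). All are annotated as protein-coding, as is GSDMD.

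RefSeq windows (GRCh38.p14) of the 250 bases before a start site were searched for 5 of the 9 members (CASP4, CASP8, RIPK1, MLKL and XAF1). GSDMD was left out of this search, so nothing is said here about its windows. The 4 stretches below include those of the 3 members that rose under both interferons and had a window. The other is 1 window of RIPK1, the only one of these 5 members with a match to the letters of an interferon-stimulated response element. Bases in exons of protein-coding genes were left out. Those of XAF1 and MLKL lie just before the annotated gene, and those of CASP4 and RIPK1 lie inside its annotated span, before internal start sites. They are written in the direction of transcription, from XAF1 (chr17:6755197-6755446, plus strand), MLKL (chr16:74700961-74701112, minus strand), CASP4 (chr11:104968729-104968824, minus strand) and RIPK1 (chr6:3068128-3068377, plus strand), with a motif match in capitals.
XAF1: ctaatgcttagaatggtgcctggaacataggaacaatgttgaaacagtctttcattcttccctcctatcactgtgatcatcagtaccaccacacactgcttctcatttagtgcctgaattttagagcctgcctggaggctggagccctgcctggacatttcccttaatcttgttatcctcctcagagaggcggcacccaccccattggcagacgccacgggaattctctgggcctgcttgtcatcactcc
MLKL: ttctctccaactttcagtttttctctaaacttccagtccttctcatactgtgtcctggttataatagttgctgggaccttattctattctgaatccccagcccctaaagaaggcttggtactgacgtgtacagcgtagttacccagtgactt
CASP4: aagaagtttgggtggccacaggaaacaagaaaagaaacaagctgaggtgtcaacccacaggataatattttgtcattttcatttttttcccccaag
RIPK1: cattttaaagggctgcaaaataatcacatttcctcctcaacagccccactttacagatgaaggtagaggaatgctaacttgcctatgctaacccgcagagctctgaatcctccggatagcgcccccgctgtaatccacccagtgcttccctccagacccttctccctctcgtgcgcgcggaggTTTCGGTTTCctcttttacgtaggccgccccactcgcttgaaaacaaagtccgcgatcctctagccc

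The capitals in RIPK1 mark a reverse-strand match to GAAANNGAAA, the letters of an interferon-stimulated response element, between 67 and 58 bases before the start. These same bases, not a further copy, lie between 183 and 174 bases before another of its 3 start sites, whose window overlaps this one. The window of the remaining start site held no match to this motif. The search covered both strands for this motif, for TTCNNNGAA (a gamma-activated site) and for GGGNNNTTCC (an NF-kB-like site), which can overlap. Of 35116 RefSeq windows of this length, 3.02%, 6.57% and 5.67% held them. The windows of XAF1, MLKL and CASP4 held none of the 3, and 1 of the 3 CASP8 windows held a single TTCNNNGAA match, TTCCAAGAA, between 200 and 192 bases before its start. A match is a description of letters only, and no match speaks only for these windows.

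Total estimated counts per library ranged from 742173 to 2213424 (median 1480883), so that 3 counts were worth 1.39 to 3.85 CPM (the count scaled by the normalized library size). After the filter on low counts 9513 genes were tested, among them 8 of the 9 members; ZBP1 did not pass. All 8 fibroblast markers were present, their summed level running from 17300 to 53000 CPM. Of the markers of other cells, the leukocyte sum reached at most 4.01 CPM (CD3E was at 0 in all libraries), the endothelial sum 2.65 CPM, and among epithelial markers EPCAM, CDH1 and KRT20 had at most 3 counts in a library, whereas VIL1 had a median of 8.45 CPM.

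CASP1 had 44 to 2290 counts a library and rose more under the interferons than under any other cytokine. In unstimulated cells it stood at 116, 151, 252 and 179 CPM in replicates 1 to 4. Under IFNα it stood at 1075, 1277, 1433 and 1426 CPM, and under IFNγ at 1210, 1469, 1419 and 1247 CPM. All 8 interferon libraries lay above all 36 others, the highest of which was an IL-6 library at 290 CPM. The log2 fold change against unstimulated cells was 2.90 ± 0.19 (SE; 7.48-fold) under IFNα and 2.94 ± 0.19 (7.67-fold) under IFNγ, with adjusted p of 3.71e-16 and 4.22e-16 in edgeR's quasi-likelihood test, adjusted by the Benjamini-Hochberg method over all 9513 genes. The 2 interferons did not differ detectably for CASP1 (log2 difference -0.04 ± 0.18, adjusted p = 0.943).

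TGF-β1 moved CASP1 the other way. Its libraries held 66.3, 46.8, 90.7 and 84.4 CPM, all below the lowest unstimulated one. The level fell by 1.27 on the log2 scale (SE 0.19, adjusted p = 1.38e-05, 0.416 of the unstimulated level). In the order of the 11 group means, the step from the interferons down to IL-17A (237 CPM) was large (log2 difference 2.46 ± 0.19, adjusted p = 4.39e-14) and that from IL-13 (143 CPM) to TGF-β1 (72.1 CPM) was smaller (0.97 ± 0.19, adjusted p = 0.00032). The 8 groups between these steps ran from 237 to 143 CPM, and no neighbours among them differed past the threshold. CASP1 was not called under TNF (0.33 ± 0.18, adjusted p = 0.275) or IL-17A (0.44 ± 0.18, adjusted p = 0.271). Both values were called when unstimulated replicate 3, the highest of its group, was left out (0.59 with adjusted p = 0.0318, and 0.69 with adjusted p = 0.0332).

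CASP1 shares sequence with its neighbour CARD16, a caspase-1 regulator made of the recruitment domain alone, and 43 of its 44 estimated counts were not whole before rounding, so the split of reads between these genes is uncertain. CARD16 itself stood at 11.7 ± 3.95 CPM (SD, n = 4) in unstimulated cells, 40.5 ± 5.89 under IFNα and 68.0 ± 21.4 under IFNγ. With CASP1, CARD16, CARD17P and CARD18 summed into 1 feature, an alternative chosen after seeing the data, the log2 changes were 2.85 under IFNα, 2.92 under IFNγ and -1.19 under TGF-β1 (adjusted p = 2.19e-16, 1.8e-16 and 2.17e-05). The sum describes the locus and does not separate CASP1 from CARD16.

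CASP4, the sensor of cytosolic lipopolysaccharide, had 274 to 1309 counts a library and rose under 4 cytokines, IFNγ, IFNα, TNF and IL-1β, by 1.71-fold to 2.01-fold. Unstimulated libraries held 272, 404, 435 and 458 CPM. Those with IFNγ held 786, 846, 842 and 686 CPM and those with IFNα 640, 648, 965 and 815 CPM. The libraries with IL-1β (619, 611, 752 and 697 CPM) and TNF (555, 720, 715 and 688 CPM) also lay wholly above the controls. The log2 fold change was 1.01 ± 0.16 under IFNγ (adjusted p = 1.03e-05), 0.97 ± 0.16 under IFNα (1.71e-05), 0.77 ± 0.16 under TNF (adjusted p = 0.000602) and 0.77 ± 0.16 under IL-1β (adjusted p = 0.00076). Unlike CASP1, CASP4 was not called under TGF-β1 (-0.13 ± 0.16, adjusted p = 0.732).

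The levels of CASP4 formed a gradual series, from 790 CPM under IFNγ to 357 CPM under TGF-β1, in which none of the 10 pairs of neighbouring groups differed past the threshold. OSM (0.50 ± 0.16, adjusted p = 0.0715) and IL-17A (0.49 ± 0.16, adjusted p = 0.126) fell short although their libraries did not overlap the controls. DESeq2's Wald test called both (adjusted p = 0.0223 and 0.0459). TNF did not differ detectably from IL-1β in CASP4 (log2 difference -0.00 ± 0.16, adjusted p = 1), and it did not differ detectably from IFNγ either (-0.24 ± 0.16, adjusted p = 0.475).

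**Figure D1:**
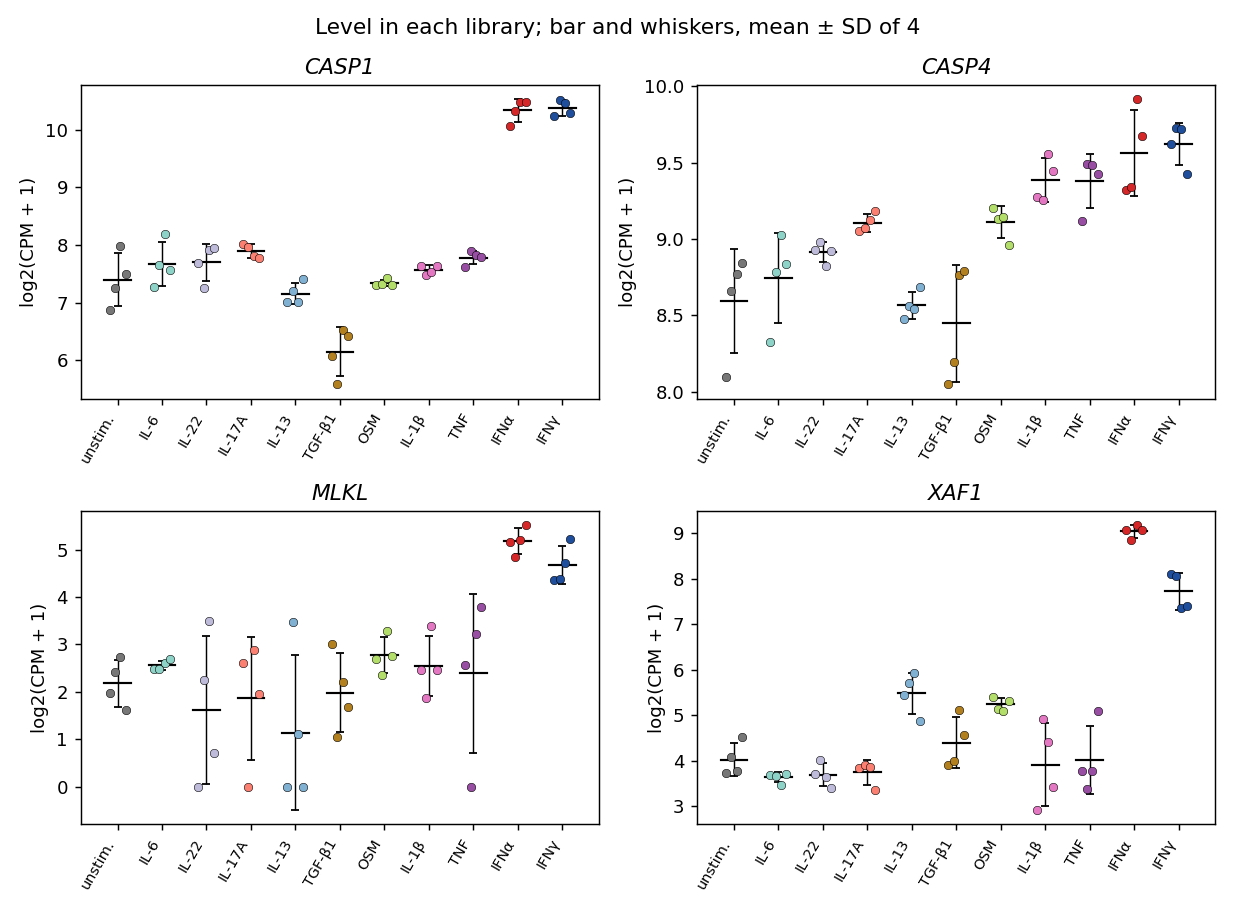
Level of CASP1, CASP4, MLKL and XAF1 as log2(CPM + 1) on the vertical axis, in each of the 44 libraries, by group on the horizontal axis. Points are libraries, and bars with whiskers are the mean ± SD of 4. IFNα and IFNγ libraries stand apart from all others in CASP1, MLKL and XAF1, TGF-β1 libraries are lowest in CASP1, and CASP4 shows a graded series.

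The ratio of CASP1 to CASP4 counts within a library, which needs no scaling for depth, set 6 of the 10 cytokines apart from unstimulated cells. It was 0.374 to 0.579 in unstimulated cells, 1.49 to 1.97 with IFNα and 1.54 to 1.82 with IFNγ. With IL-1β it was 0.246 to 0.321, with TNF 0.315 to 0.352, with OSM 0.267 to 0.317 and with TGF-β1 0.161 to 0.251. These 4 groups lay wholly below the unstimulated libraries; in IL-1β and TNF it was CASP4 that was called higher, in TGF-β1 CASP1 that was called lower, and in OSM neither was called. IL-6 (0.412 to 0.556), IL-13 (0.343 to 0.41), IL-17A (0.375 to 0.488) and IL-22 (0.3 to 0.533) overlapped the unstimulated range. The counts are not corrected for transcript length, so the ratio is read between groups only.

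**Figure D2:**
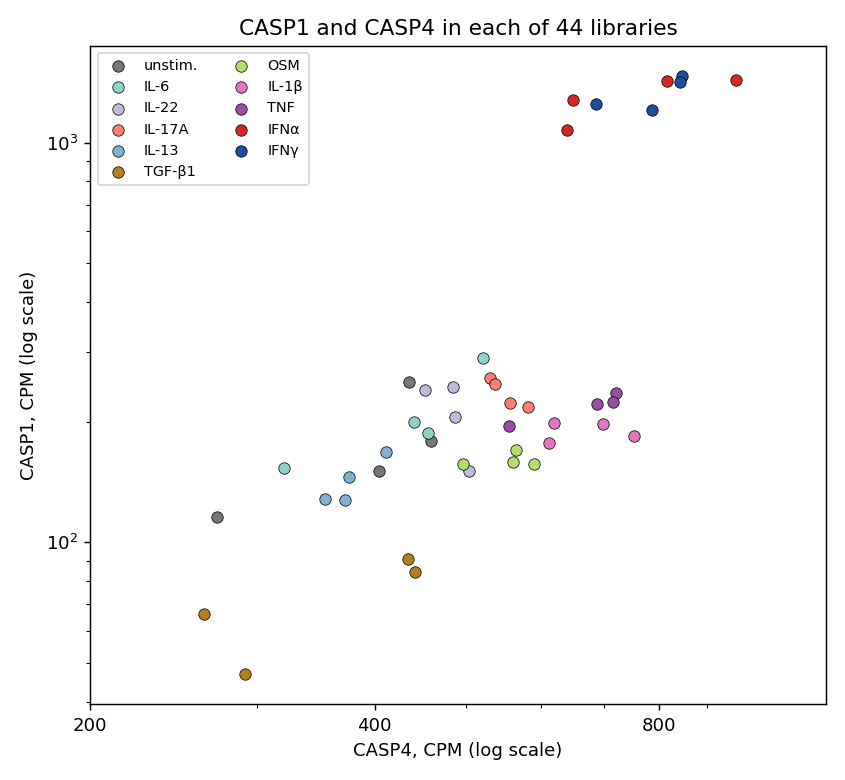
CASP1 on the vertical axis against CASP4 on the horizontal axis, both in CPM on log scales; each point is 1 of 44 libraries, coloured by group. The 8 interferon libraries lie above 1000 CPM of CASP1, the IL-1β and TNF libraries lie to the right of the unstimulated ones at a like CASP1 level, and the TGF-β1 libraries lie lowest.

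GSDMD, which encodes the pore-forming substrate of both caspases, was near the limit of detection, with 158 counts in all 44 libraries together. Its 4 unstimulated libraries held 2, 0, 2 and 0 counts. With IFNγ they held 11, 2, 4 and 18 counts and with IFNα 6, 11, 3 and 6. In CPM both interferon groups lay above the unstimulated libraries without overlap. For IFNγ this rests on library size, since its replicate 2 held 2 counts, as did unstimulated replicates 1 and 3. IFNγ was the only comparison with a call in edgeR (log2 fold change 3.25 ± 1.05, adjusted p = 0.0367); under IFNα the change was 2.60 ± 1.06 with an adjusted p of 0.123. As a ratio of summed counts per depth, 35 against 4 counts gave 10.8 (95% exact Poisson interval 3.87 to 41.9) for IFNγ and 26 against 4 gave 6.61 (2.29 to 26.0) for IFNα. Such intervals, here and below, reflect counting error alone and leave out the spread between libraries. The difference between the interferons was within the error (-0.65 ± 0.88, adjusted p = 0.751).

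The GSDMD call was fragile. It was lost when unstimulated replicate 1, 2 or 4, or IFNγ replicate 1 or 4, was left out (adjusted p 0.0577, 0.124, 0.118, 0.0646 and 0.156). Without unstimulated replicate 3 the log2 fold change was 3.86. It was also lost when all genes with any count were tested (adjusted p = 0.0762), and DESeq2 gave no adjusted p. GSDMD passed the filter on low counts mainly through interferon libraries, in which it was high, so its call is not independent of that filter.

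CASP8 and CASP10, the initiators of death-receptor apoptosis, were sparse and were called under no cytokine. CASP8 had 0 to 26 counts a library and was at 0 in 8 of 44. Its unstimulated libraries held 13, 3, 0 and 5 counts, its IFNα libraries 23, 5, 6 and 26, and its IL-1β libraries 1, 1, 0 and 0. The groups overlapped in each comparison. The log2 change was 1.56 ± 0.91 under IFNα (adjusted p = 0.342) and -3.04 ± 1.2 under IL-1β (adjusted p = 0.139). Between TNF (6, 0, 4 and 22 counts) and IL-1β it was 3.70 ± 1.18, with an adjusted p of 0.128.

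CASP10 had 0 to 38 counts a library and varied most of the tested members within groups, with a biological coefficient of variation of 1.11 against 0.331 for all genes in common. Its unstimulated libraries held 0, 2, 20 and 1 counts, its IL-22 libraries 0, 37, 1 and 0, and its IFNα libraries 14, 0, 3 and 38. A single library made up most of the count in each of these 3 groups. The group means ran from 0.767 CPM (OSM) to 8.58 CPM (IL-13), and no neighbours in that order differed past the threshold. The counts of CASP10 were not whole in 29 of 44 libraries.

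RIPK1, the kinase at the branch point of survival, apoptosis and necroptosis, was present at 0 to 30 counts and called under no cytokine. Unstimulated libraries held 20, 5, 10 and 11 counts and IFNα libraries 30, 19, 9 and 16. The IL-13 libraries each held 14. IL-22 libraries were lowest, with 0, 3, 0 and 5 counts and all below the unstimulated ones in CPM (0 to 3.20 against 3.65 to 9.79). The IL-22 change was -2.15 ± 0.85 on the log2 scale with an unadjusted p of 0.0152 and an adjusted p of 0.319. Under IFNα and IFNγ it was 0.71 ± 0.71 and 0.01 ± 0.74. The window of RIPK1 printed above held the GAAANNGAAA match, and the transcript was called under neither interferon (adjusted p = 0.65 and 0.993).

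MLKL, the executioner of necroptosis, was called higher under both interferons; at a median of 8 counts a library, the missing calls under the other cytokines do not show an unchanged level. Unstimulated libraries held 6, 6, 8 and 3 counts (2.94, 4.37, 5.63 and 2.05 CPM). IFNα libraries held 63, 42, 45 and 72 counts (34.7, 27.6, 35.8 and 44.8 CPM) and IFNγ libraries 26, 24, 29 and 51 (19.6, 19.9, 25.1 and 36.3 CPM). All 8 interferon libraries lay above the 36 others, whose highest was a TNF library at 12.9 CPM. The log2 fold change was 3.24 ± 0.76 under IFNα (9.44-fold, adjusted p = 0.00237) and 2.74 ± 0.76 under IFNγ (6.68-fold, adjusted p = 0.0125).

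Summed counts per depth gave MLKL ratios of 9.81 (95% exact Poisson interval 6.37 to 15.8) and 7 (4.47 to 11.4) for the 2 interferons. IFNα and IFNγ did not differ detectably (0.50 ± 0.67, adjusted p = 0.749). The next group in order was TNF (6.51 ± 5.42 CPM, SD, n = 4). It missed the threshold against IFNγ (-1.90 ± 0.72, adjusted p = 0.108), with no overlap of the libraries, and was called by DESeq2 (-1.94, adjusted p = 0.0382) and with all genes with any count in edgeR (-1.90, adjusted p = 0.0435).

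ZBP1, the sensor that can start necroptosis through RIPK3, was not detected beyond single counts. It had 8 counts in all, at most 1 in a library, and 36 of 44 libraries were at 0. The IFNγ libraries were all at 0 and the IFNα libraries held 0, 1, 0 and 0 counts, against 0, 1, 1 and 0 in unstimulated cells. A level below 1.39 to 3.85 CPM, the worth of 3 counts, could not be seen at this depth. RIPK3, the kinase between ZBP1 and MLKL, had at most 10 counts in a library and did not pass the filter either.

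**Figure D3:**
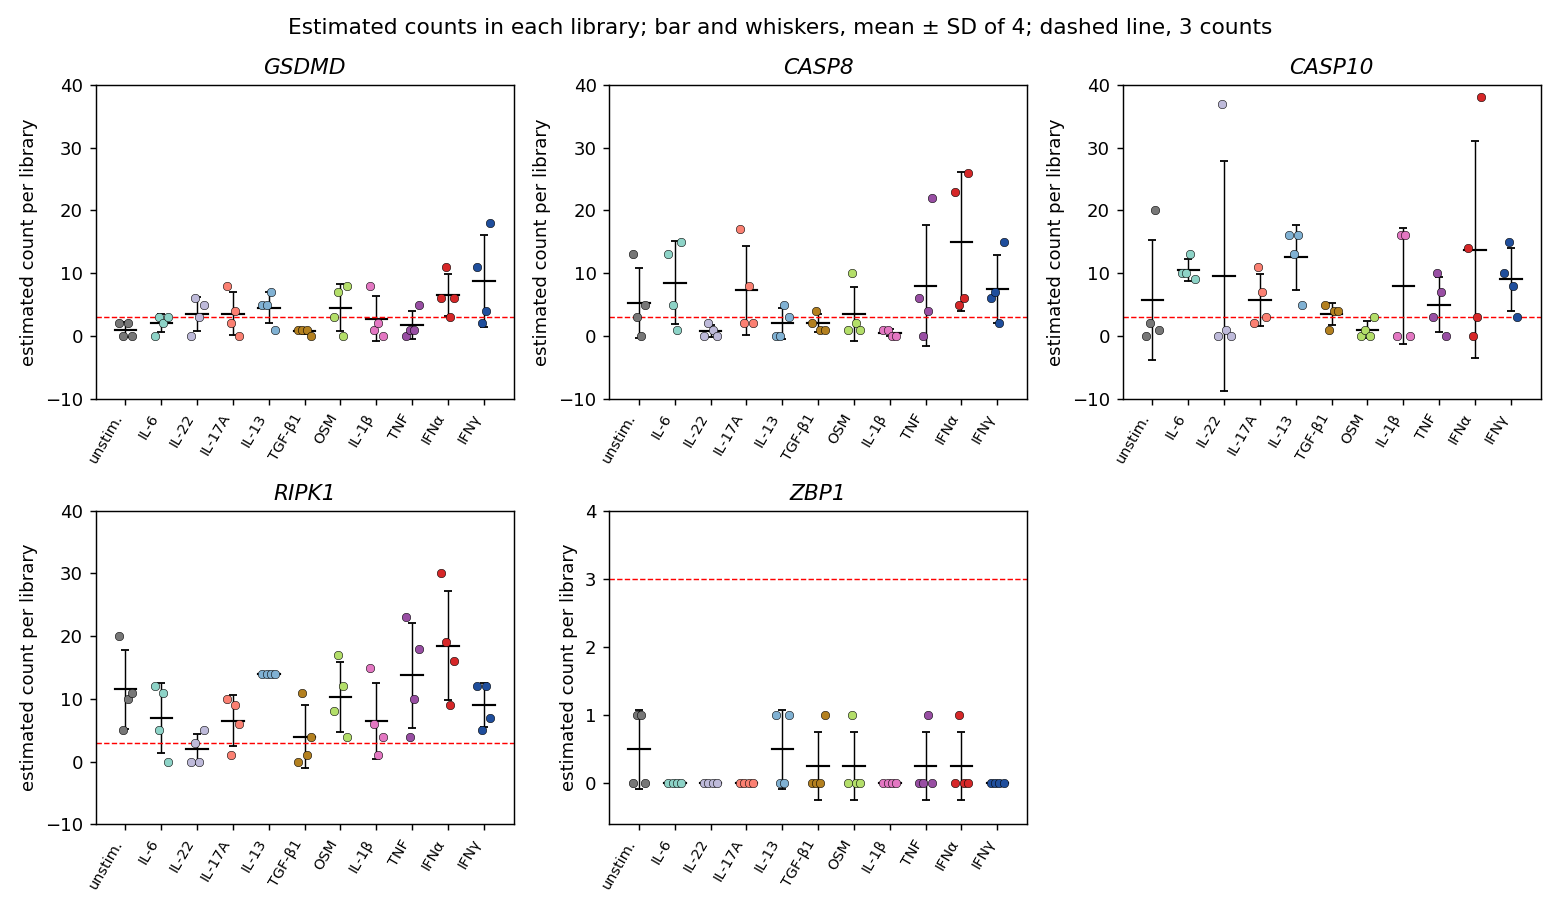
Estimated counts per library on the vertical axis for GSDMD, CASP8, CASP10, RIPK1 and ZBP1, by group on the horizontal axis; points are libraries, bars with whiskers are the mean ± SD of 4 and the dashed line is 3 counts. GSDMD lies at 0 to 2 counts in unstimulated cells and reaches 18 under IFNγ, CASP10 is spread between single libraries, and ZBP1 never exceeds 1 count.

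XAF1 showed the largest fold change of the tested members and rose under IFNα, IFNγ, IL-13 and OSM. Unstimulated libraries held 12.2, 16.0, 12.7 and 21.9 CPM. IFNα libraries held 539, 457, 574 and 535 CPM and IFNγ libraries 273, 265, 162 and 168 CPM. The IFNα libraries lay above all IFNγ libraries, and these above all the rest. The log2 fold change was 5.07 ± 0.33 under IFNα (33.6-fold, adjusted p = 1.97e-16) and 3.79 ± 0.32 under IFNγ (13.9-fold, adjusted p = 1.11e-12). XAF1 was the only member called between the interferons, 1.28 ± 0.27 higher on the log2 scale under IFNα (2.42-fold, adjusted p = 0.000916).

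IL-13 and OSM raised XAF1 to a lower level than the interferons. IL-13 libraries held 42.5, 51.0, 59.4 and 28.4 CPM and OSM libraries 41.4, 34.4, 33.4 and 38.8 CPM, all above the unstimulated ones. The log2 fold change was 1.55 ± 0.32 under IL-13 (2.92-fold, adjusted p = 0.00161) and 1.24 ± 0.32 under OSM (2.36-fold, adjusted p = 0.0161). These groups did not differ from each other past the threshold (0.30 ± 0.30, adjusted p = 0.645), and IL-13 lay below IFNγ by 2.25 ± 0.29 (adjusted p = 7.85e-08). The OSM call was lost without unstimulated replicate 1 or 3 or OSM replicate 1 (adjusted p 0.0517, 0.0524 and 0.0521). TNF did not move XAF1 detectably (0.18 ± 0.34, adjusted p = 0.814), with replicate 4 at 33.2 CPM above the other 3 at 9.47 to 12.8 CPM. IL-6 libraries lay below the unstimulated ones without overlap, at 10.1 to 12.1 CPM, and were not called (-0.44 ± 0.35, adjusted p = 1).

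XAF1 overlaps PRAL, a transcript annotated on the opposite strand. The ratio of PRAL to XAF1 counts lay between 0.398 and 0.812 in the libraries with over 50 XAF1 counts. Whether the counting used strand is not given in the sources used here, so reads of the pair may not be told apart. PRAL stood at 11.8 ± 2.71 CPM (SD, n = 4) in unstimulated cells, 344 ± 47.5 under IFNα and 131 ± 65.0 under IFNγ. With both summed, an alternative chosen after seeing the data, the log2 changes were 4.99 under IFNα, 3.67 under IFNγ, 1.46 under IL-13 and 1.15 under OSM (adjusted p = 1.43e-17, 1.45e-13, 0.000716 and 0.0106).

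**Figure D4:**
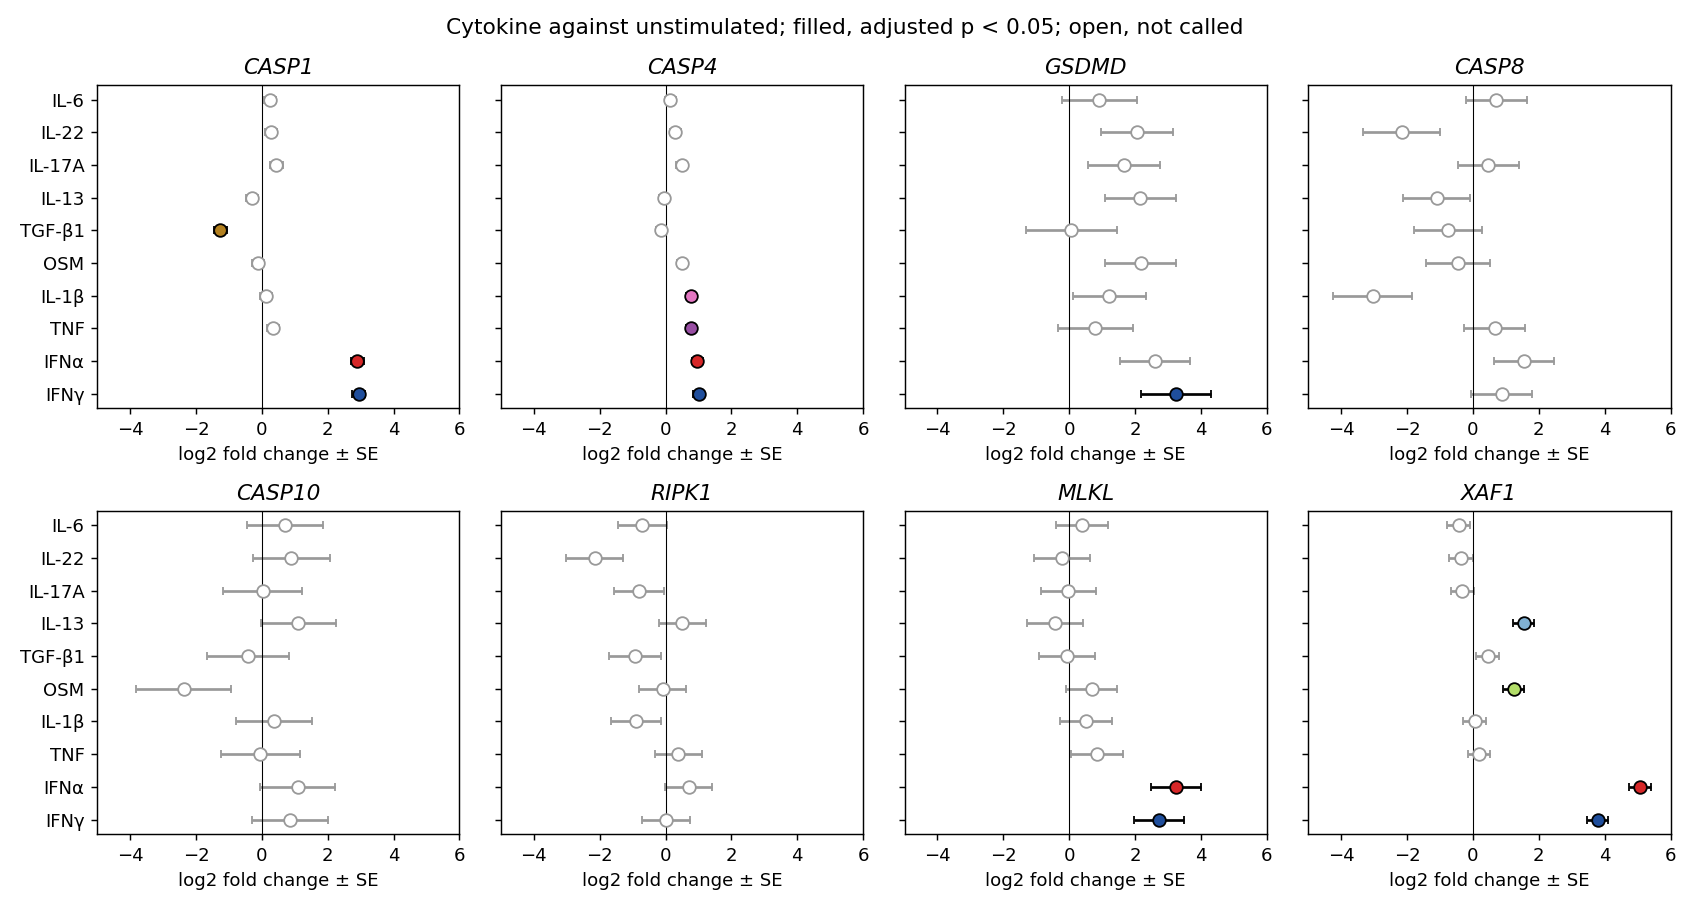
Log2 fold change against unstimulated cells on the horizontal axis, with its standard error, for the 8 tested members and each of 10 cytokines; filled points have an adjusted p under 0.05 and open points do not. CASP1 moves right under both interferons and left under TGF-β1, CASP4 moves right under 4 cytokines, XAF1 under 4, MLKL under 2 and GSDMD under IFNγ alone, while CASP8, CASP10 and RIPK1 have open points and wide errors throughout.

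Counted by cytokine, the members called lay mainly with the interferons. IFNα raised 4 of the 8 tested members (CASP1, CASP4, MLKL and XAF1), where 4.99% of all genes tested rose and 4.86% fell. IFNγ raised 5 (the same 4 and GSDMD), against 5.52% of all genes raised and 5.13% lowered. IL-1β raised CASP4 alone (background 3.46% raised, 3.92% lowered), as did TNF (5.37% and 6.09%). IL-13 raised XAF1 alone (1.53% and 2.4%), as did OSM (1.42% and 2.54%), and TGF-β1 lowered CASP1 alone (2.61% and 3.08%). With a single member of 8, the last 5 counts cannot be read as a result about the members as a set. The members were chosen with earlier results of these data known, and several are known interferon targets in other cells. The interferon counts are therefore not an independent test of the list, and the wider list below was also chosen with such results known.

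No member was called by edgeR under IL-6, IL-17A or IL-22. IL-6 raised 0.0105% of all genes, a single gene, and lowered 0%; at an unadjusted p under 0.05 there were 233 genes and 0 members, and DESeq2 called 1 gene and 0 members. IL-22 raised 0% and lowered 0% in edgeR; 1037 genes and 1 member (RIPK1) had an unadjusted p under 0.05, and DESeq2 called 112 genes and 0 members. IL-17A raised 0.599% and lowered 0.925%; 1195 genes and 2 members (CASP1 and CASP4) had an unadjusted p under 0.05, and DESeq2 called 239 genes and 1 member, CASP4. The median log2 change over the 8 tested members was 2.08 under IFNα and 1.88 under IFNγ, against -0.01 and -0.01 over all genes tested, and lay between -0.28 (TGF-β1) and 0.53 (TNF) under the other cytokines. The middle values under IFNα were those of GSDMD (2.60 ± 1.06) and CASP8 (1.56 ± 0.91), both sparse and not called. Under IFNγ they were those of MLKL (2.74 ± 0.76) and CASP4 (1.01 ± 0.16), both called.

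In the direct contrasts, IFNα against IFNγ gave 1 member higher (XAF1) and 0 lower in edgeR, with 4.93% and 4.46% of all genes. TNF against IL-1β gave 0 members in edgeR (0.452% of genes higher, 0.694% lower), with CASP8, among 1091 genes, at an unadjusted p under 0.05; DESeq2 called 176 genes and 0 members. TNF against IFNγ gave 0 members higher and 2 lower, CASP1 (-2.61 ± 0.19, adjusted p = 1.54e-14) and XAF1 (-3.61 ± 0.32, adjusted p = 3.4e-12), where 3.5% and 4.51% of genes were called. Without TNF replicate 4 the XAF1 difference was -4.21. These contrasts share the fit, and those against unstimulated cells share its 4 control libraries.

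With a further bound of 1.5 on the absolute log2 fold change, as used for the cytokine signatures of the study, fewer members stood. Under IFNα they were CASP1, MLKL and XAF1 (3.98% of all genes) and under IFNγ CASP1, GSDMD, MLKL and XAF1 (3.53%). XAF1 remained under IL-13 (1.47%), and CASP1 and XAF1 between TNF and IFNγ (3.65%). CASP4 passed this bound nowhere, and no member passed it for IL-1β (2.78%), TNF (4.19%), TGF-β1 (1.7%), OSM (1.3%), IL-17A (0.452%), IL-6 (0.0105%), IL-22 (0%), IFNα against IFNγ (2.74%) or TNF against IL-1β (0.368%). The smaller CASP4 and CASP1 changes are thus outside such signatures.

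Across the 11 group means of log2 CPM, MLKL followed CASP1 (Pearson r = 0.892) and XAF1 (0.855) more closely than CASP10 did any member (at most 0.368, with CASP1). These are descriptions over 11 points that share controls and depth, and the interferon groups weigh heavily in them. The genes most like CASP1 in this measure were PARP14 (0.971) and DLL4 (0.96), and those most like MLKL were EPSTI1 (0.958), IL15RA (0.948) and CD38 (0.948). For CASP4 they were TNFAIP2 (0.942), CFLAR (0.92), which encodes the brake on caspase-8, and CADPS2 (0.898). For XAF1 they were PRAL (0.993), LGALS3BP (0.976) and NMI (0.966). For the sparse members they were VAMP5 (0.908), C18orf21 (0.893) and APOL2 (0.875) for GSDMD, MECR (0.882), PUF60 (0.856) and ZNF600 (0.855) for CASP8, ITPRIPL2 (0.856), KRCC1 (0.838) and SLC7A6 (0.816) for CASP10, and CPPED1 (0.885), UBR1 (0.867) and NUMB (0.861) for RIPK1.

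Of a wider list of 69 other cell death genes, 68 were in the table and 41 passed the filter. The inflammasome sensors NLRP3, NLRC4, AIM2 and MEFV, the caspase CASP5, the cytokine IL18 and the gasdermins GSDMA, GSDMB and GSDMC did not pass and had at most 9 counts in any library. Of the pro-death members of the BCL2 family, BAK1, BCL2L11, BBC3, BIK, BMF and HRK did not pass and had at most 7. BOK did not pass either and had at most 9. The survival genes BCL2 and BCL2L1 also failed the filter, with at most 17 and 7 counts in a library. The following therefore describes the part of each route that the libraries could see.

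IFNα raised 7 of the 41 and lowered 1, where 4.99% and 4.86% of all genes tested were called. TNFSF10, the death ligand TRAIL, had 1 count in the 4 unstimulated libraries together and 679 with IFNα, a ratio of 690 per depth (95% exact Poisson interval 123 to 27300; adjusted p = 6.44e-08). TNFRSF10D, a decoy receptor of TRAIL, fell from 25.4 ± 7.55 to 2.51 ± 2.71 CPM (SD, n = 4; log2 change -3.40 ± 0.63 SE, adjusted p = 8.93e-05). The DNA sensor IFI16 rose (2.64 ± 0.16, adjusted p = 1.81e-17), as did CARD16 (1.80 ± 0.40, adjusted p = 0.00106), the RNA editor ADAR that restrains ZBP1 (1.68 ± 0.31, adjusted p = 7.87e-05) and the death receptor FAS (1.24 ± 0.21, adjusted p = 1.95e-05). CFLAR and PMAIP1 made up the 7. By role, the calls took in 3 of 6 tested death receptors and ligands (TNFSF10 and FAS higher, TNFRSF10D lower) and 2 of 8 inflammasome genes. TNFSF10 had so few counts outside the interferon groups that it entered the test through the libraries in which it was high.

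IFNγ raised 10 of the 41, where 5.52% of all genes rose and 5.13% fell. TNFSF10 had 152 counts against 1 (ratio 188, 95% exact Poisson interval 33.3 to 7480), and the survival factor BCL2A1 185 against 7 (32.7, 15.6 to 82.5). CARD16 (2.55 ± 0.40, adjusted p = 7.76e-06), the BH3-only gene PMAIP1 (2.33 ± 0.29, adjusted p = 5.42e-08), IL1B (2.12 ± 0.64, adjusted p = 0.0232) and MCL1 (1.41 ± 0.22, adjusted p = 7.76e-06) also rose, beside ADAR, BID, CFLAR and IFI16. In the BCL2 family 3 of 6 tested genes rose, the survival factors BCL2A1 and MCL1 and the pro-death PMAIP1. A further survival factor, BCL2L2, was tested and not called (-0.26 ± 0.72, adjusted p = 0.876). Between the interferons, IFNα was higher in CASP6 (1.02 ± 0.21, adjusted p = 0.000534), FAS (0.64 ± 0.21, adjusted p = 0.0396) and IFI16 (1.31 ± 0.15, adjusted p = 2.04e-08), and lower in BCL2A1 (-2.69 ± 0.71, adjusted p = 0.0102), MCL1 (-0.92 ± 0.22, adjusted p = 0.00357) and PMAIP1 (-1.38 ± 0.28, adjusted p = 0.000525).

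TNF raised 8 of the 41 and lowered 1, where 5.37% and 6.09% of all genes were called. IL-1β raised 6, where 3.46% of all genes rose and 3.92% fell. BIRC3, listed here with the caspase inhibitors, rose from 7.13 ± 11.2 CPM to 856 ± 163 with TNF and 295 ± 62.3 with IL-1β (SD, n = 4). The log2 changes were 6.92 ± 0.61 (SE) and 5.39 ± 0.59 (adjusted p = 8.72e-12 and 3.43e-09). The unstimulated SD of BIRC3 exceeded its mean, with at most 35 counts in a library, so the size of these changes rests on an uneven baseline. BCL2A1 (684 counts with TNF and 768 with IL-1β against 7) and TNFAIP3, which encodes the brake A20 (312 and 181 against 7), rose in both, as did IL1B (4.34 ± 0.66 and 4.52 ± 0.66, adjusted p = 4.75e-06 and 2.64e-06), BIRC2 (1.56 ± 0.24 and 1.06 ± 0.24, adjusted p = 6.74e-06 and 0.00219) and CFLAR (1.2 ± 0.22 and 0.84 ± 0.22, adjusted p = 7.91e-05 and 0.00792). TNF also raised BID (1.66 ± 0.29, adjusted p = 4.96e-05) and CYLD and lowered IFI16 (-0.84 ± 0.16, adjusted p = 0.000144). IFI16 was the only one of the 41 called between TNF and IL-1β (-0.81 ± 0.16, adjusted p = 0.00263). BCL2A1 and TNFAIP3, with 7 unstimulated counts each, entered the test mainly through libraries in which they were high. Among the genes listed as caspase inhibitors and their antagonists, each of these cytokines raised 2 of 5 tested, BIRC2 and BIRC3.

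TNF against IFNγ gave 5 of the 41 higher and 7 lower, where 3.5% and 4.51% of all genes were called. TNFAIP3 (312 counts against 1, ratio 275, 95% exact Poisson interval 49.0 to 10900), BIRC3 (5.27 ± 0.54, adjusted p = 3.81e-10), IL1B (2.22 ± 0.58, adjusted p = 0.00935) and TNFRSF10D (2.21 ± 0.53, adjusted p = 0.00362) were higher with TNF. TNFSF10 (5 counts against 152) and RBCK1, which encodes a subunit of the linear ubiquitin ligase (-2.34 ± 0.69, adjusted p = 0.0228) were lower. The other called genes were BIRC2, higher, and ADAR, CARD16, IFI16, MCL1 and PMAIP1, lower. CASP4 was raised by both cytokines against unstimulated cells, while CASP1, XAF1 and these genes differed between them.

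The remaining calls were 1 of the 41 under IL-13 (1.53% of all genes rose and 2.4% fell), 1 under IL-17A (0.599% and 0.925%) and 2 under OSM (1.42% and 2.54%), too few to read as a result about the list. IL-13 lowered CARD16 (-1.54 ± 0.46, adjusted p = 0.047), as did OSM (-1.72 ± 0.46, adjusted p = 0.0228), from 11.7 ± 3.95 CPM to 3.99 ± 1.19 and 3.42 ± 0.66 (SD, n = 4). CARD16 had at most 7 counts in a library with IL-13 and 6 with OSM. The split of reads between CARD16 and CASP1 is uncertain, which limits every CARD16 call given here. OSM raised IFI16 (1.63 ± 0.16, adjusted p = 3.65e-10), and IL-17A lowered MCL1 (-1.15 ± 0.23, adjusted p = 0.00367). TGF-β1, IL-6 and IL-22 called 0 of the 41 in edgeR, with 5, 2 and 7 at an unadjusted p under 0.05, among 1799, 233 and 1037 of all genes, and 1, 0 and 0 called by DESeq2. The CARD16 call under IL-13 was lost without unstimulated replicate 2, 3 or 4 or any IL-13 replicate, and the OSM count of 2 fell to 1 without unstimulated replicate 3 or OSM replicate 1, 2 or 4. Over the 41 genes the median log2 change was 0.49 under IFNα, 0.62 under IFNγ, 0.55 under TNF and 0.10 under IL-1β, against -0.01, -0.01, -0.02 and -0.01 over all genes tested.

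**Figure D5:**
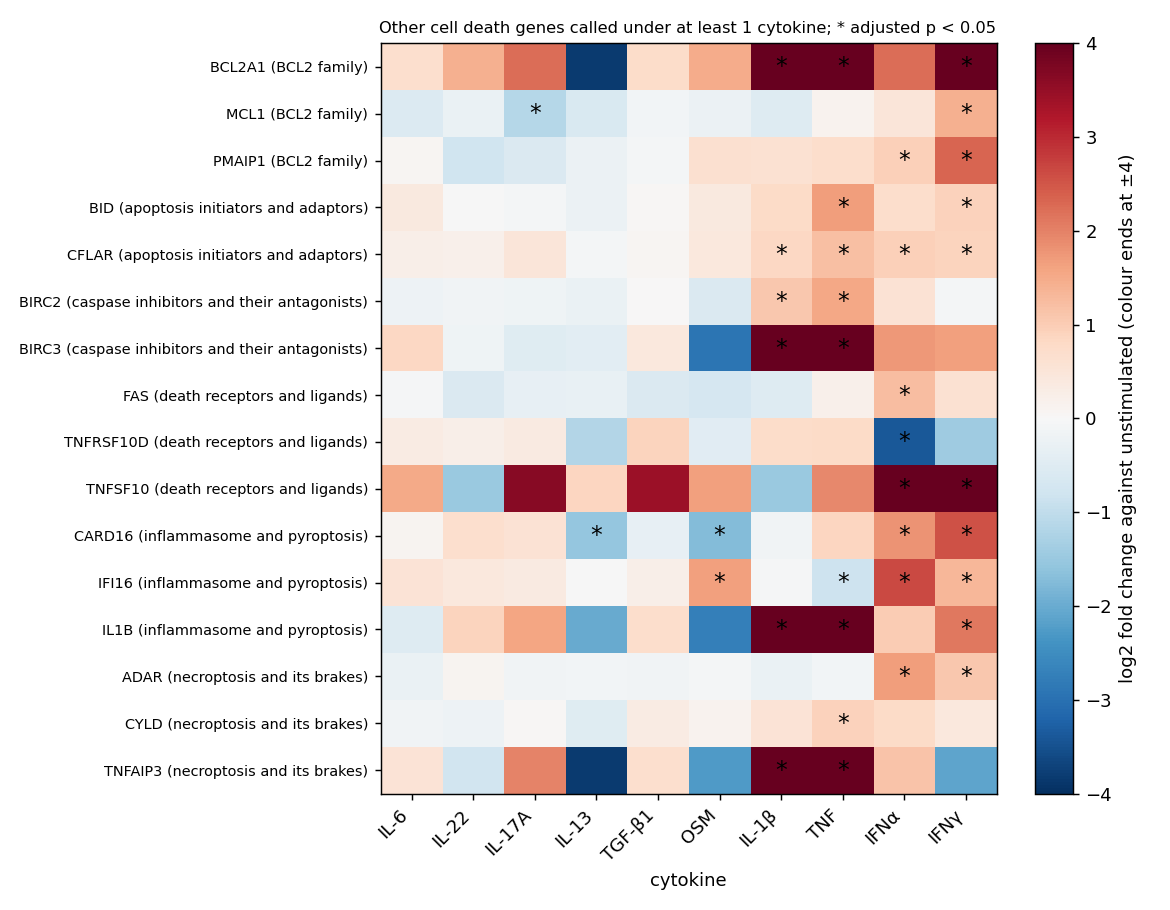
Log2 fold change against unstimulated cells (colour, ending at ±4) of the 16 other cell death genes called under at least 1 cytokine, with cytokines in columns and genes, with their role, in rows; a star marks an adjusted p under 0.05. BCL2A1, BIRC3, IL1B and TNFAIP3 are deep red under IL-1β and TNF, TNFSF10 under the interferons, and IL-6, IL-22 and TGF-β1 have no star; colours of BCL2A1, TNFAIP3 and TNFSF10 rest on 7, 7 and 1 unstimulated counts in 4 libraries. Those of BIRC3 rest on an uneven unstimulated level (7.13 ± 11.2 CPM, SD).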

How the data were processed

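Bulk RNA-seq of Ccd-18Co was analysed in 44 libraries, grouped by the sample labels. Per the labels, the authors used kallisto (version 0.48.0) with FastQC (0.11.9) and MultiQC (1.14) and name hg38; the transcriptome, the step to gene symbols and the use of strand are not given in the sources used here. The deposited values are estimated counts per gene symbol without depth scaling, 5.77% of them not whole; 16928 of 40663 symbols were at 0 throughout.

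Counts were rounded. edgeR (4.0.16, R 4.3.3) kept 9513 genes by filterByExpr, applied TMM scaling and fitted all 44 libraries in 1 quasi-likelihood model with 1 coefficient per group, Benjamini-Hochberg adjusted over all genes within each of 13 comparisons. A gene is called at an adjusted p under 0.05. CPM use the normalized library size. Standard errors of fold changes are the change divided by the root of the F statistic. Poisson intervals and the 3-count limit reflect counting error alone and treat each count as a separate event. As no molecular identifiers were counted, the intervals may be too narrow even for that. The code was tested on simulated data. Of 66 pairs of replicates, 0 were identical, and the lowest chi-square per degree of freedom was 3.21.

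Named were all members; of the other cell death genes those called, up to 6 of the largest change per comparison, the rest as names only; and the 3 genes most like each member over 11 group means, of which 1 is not reported here. Genes at the detection limit and those compared by role were named besides. The members, lists and tests were chosen with earlier results of these data known. Alternatives were DESeq2 (1.42.0) size factors and Wald test, filters (any count; 10 counts in 4 libraries), the 2 groups alone, a replicate block, a log2 bound of 1.5, leaving out each library, and a prior count of 0.5 for likeness. ZBP1 had at most 1 count, so no permutation test was run.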

Additional observations from a re-analysis of the deposited data

Results flagged for a closer look

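Each member's CPM was checked in each group of 4 for a library far from the other 3 by Dixon's test, which chance passes in about 1 in 20 groups; 8 of 88 groups passed it. The gap was small in CPM for CASP1 with OSM, where replicate 3 stood at 170 CPM against 157 to 159 CPM. It was also small for XAF1 with IL-6, where replicate 3 stood at 10.1 CPM against 11.8 to 12.1 CPM, and with IL-17A, where replicate 4 stood at 9.19 CPM against 13.4 to 14.0 CPM.

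With TNF, XAF1 stood at 33.2 CPM in replicate 4 against 9.47 to 12.8 CPM. The remaining 4 rest on few counts. CASP8 with OSM had 5.93 CPM in replicate 2 against 0.609 to 1.33 CPM, and MLKL with IL-13 had 10.0 CPM in replicate 2 against 0 to 1.15 CPM. CASP10 had 14.1 CPM in unstimulated replicate 3 against 0 to 1.46 CPM, and 27.9 CPM in IL-22 replicate 2 against 0 to 1.28 CPM.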

How the results depend on the processing

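Of 17 called member values, 15 kept call and direction in each alternative that gave an adjusted p; the log2 bound of 1.5 is not among these and is given as counts below. In 245 alternative fits of these values 9 lost the call, those of GSDMD under IFNγ and XAF1 under OSM, and 0 changed sign. Of 87 values not called, 8 of 1145 alternative fits gained a call and 78 changed sign. DESeq2 gave no adjusted p for 30 member values. A count of 1.5 times or less from the reported one is not listed here.

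With DESeq2's Wald test the members called were 1 for IL-17A (0 reported) and 2 for OSM (1), and the other cell death genes called were 1 for TGF-β1 (0) and 5 for OSM (2). The replicate numbers were not taken to pair the libraries, since the labels do not tie them and only 6 of 40 same-number pairs with unstimulated libraries correlated above 0.1 (mean 0.0237 over all same-number pairs and -0.0077 for different numbers). That 22 of 44 libraries were closest to their own number, more than an even split over 4 numbers gives, is a hint of shared variation in the data. With the replicate number as a block, members called were 1 for IL-17A (CASP4, adjusted p = 0.04) and 2 for OSM (CASP4 added, adjusted p = 0.0217), other genes 0 for IL-13 (1 reported) and 2 for IL-17A (1). With all genes with any count, other genes called were 4 for IL-17A, 13 for IFNα (8), 1 for TGF-β1 and 4 for OSM, more of the list being tested. With only the libraries of the 2 groups, they were 0 for IL-13 and 1 for OSM. With a log2 bound of 1.5, members called were 0 for IL-1β (1), TGF-β1 (1), TNF (1), OSM (1) and IFNα against IFNγ (1), and other genes 0 for IL-17A, 5 for IFNα and 5 for IFNγ (10). The cause of the changes under the DESeq2 test and the block was not tested.

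Leaving out 1 library at a time gave 0 to 1 members for IL-17A (1 without unstimulated replicate 3), 1 to 2 for TNF (2 without the same library), 0 to 1 for OSM (0 without unstimulated replicate 1 or 3 or OSM replicate 1) and 4 to 5 for IFNγ. Other genes called were 0 to 1 for IL-13, 1 to 2 for IL-17A (2 without unstimulated replicate 3), 0 to 1 for TGF-β1 (1 without unstimulated replicate 1 or TGF-β1 replicate 4) and 1 to 4 for OSM (4 without unstimulated replicate 1, and 1 without unstimulated replicate 3 or OSM replicate 1, 2 or 4). With a prior count of 0.5, 3 of the 3 genes most like XAF1 stayed and 1 of 3 for MLKL.

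Depth limits GSDMD, CASP8, CASP10, RIPK1, MLKL and ZBP1: medians were 2.5, 2.5, 4.5, 9.5, 8 and 0 counts a library, so a missing call there does not show that a level was unchanged.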
